A study of Mus musculus with 3 samples.

Results

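The 10 genes described here encode C-type lectin receptors of the Dectin group and their relatives on myeloid cells: Clec7a (Dectin-1), Clec4n (Dectin-2), Clec4d (Mcl, also called Dectin-3), Clec4e (Mincle), Clec4a1, Clec4a2 and Clec4a3 of the dendritic cell immunoreceptor (Dcir) group, Clec5a (Mdl-1), Clec12a (Micl) and Clec9a (Dngr-1). They were taken from the deposited table by gene symbol, and all 10 were found, each in 1 row, among 34590 symbols. The table came from 3 libraries of primary mouse bone marrow-derived dendritic cells, antigen-presenting cells that had been differentiated from femur and tibia marrow in granulocyte-macrophage colony-stimulating factor (GM-CSF), a culture shared by all 3. Non-adherent cells were collected on day 6 of culture, then kept for 48 h with no addition (control), with buffer alone (whose dose label names no agent), or with 800 ng/ml of rATB, the recombinant B chain of the mistletoe protein articulatin. Each group was a single library, and neither mouse strain, animal age nor pooling of animals is given in the sources used here. No difference below therefore has a replicate check, conditions could not be tested against each other, and p-values are left out.

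C-type lectin receptors bind sugars, lipids or other ligands of microbes and dead cells through an extracellular lectin-like domain. Some carry a tyrosine motif in their own tail or borrow one from a partner protein, the adaptors Fcer1g (Fc receptor gamma chain) or Tyrobp (Dap12), and so activate the kinase Syk and the adaptor Card9. Others, such as Clec12a and Clec4a2, carry an inhibitory tyrosine motif that recruits phosphatases. In dendritic cells the activating members start cytokine production and steer T cell responses to fungi and mycobacteria.

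Levels are in units, where 1 unit is a millionth of the control total, and it corresponded to 17.8 reads for control, 17.1 for buffer and 15.7 for rATB after the authors' scaling. Total reads were 17776492, 16105080 and 15203139 in the same order. Ratios are followed by exact 95% intervals, which cover counting error only. A gene was counted as higher or lower by the size rule where log2(value + 1) differed by at least 1 between libraries. The 12559 genes whose mean over the libraries reached 1 unit were compared, and all 10 receptor genes were among them. The labelled cell type was checked against 7 dendritic cell markers, and all 7 passed that filter in these libraries, led by Cd74 and with Itgax at 1200.0, 1213 and 981 units in control, buffer and rATB. Macrophage markers were present too (Csf1r at 2781, 2176 and 2028 units), whereas summed B cell, red cell and stromal markers stayed between 0.0563 and 0.890 units.

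The receptor genes were lower as a group with rATB, by amounts that differed widely between them. The rATB library held the lowest value for 9 of the 10 genes, against 44.1% of all genes, and the highest for the remaining gene, Clec4d, against 33.2%. Relative to both other libraries and beyond counting error, 8 of the 10 were lower with rATB (15.4% of all genes) and Clec4d was higher (11.4%). Abundant genes pass counting error more easily, so the same shares were taken over the 5514 genes with a mean level at least that of Clec12a, the lowest of the 10. Among these, rATB was lowest for 45% and highest for 32.3%, and beyond counting error it was lower than both for 22.3% and higher for 16.2%. Taken singly, 8 receptor genes were lower than in buffer beyond counting error (20% of all genes, 25.6% of the abundant ones) and 9 lower than in the control (27.3% and 39%). Clec4d was higher in each comparison, like 19.6% and 14.5% of all genes, except against buffer with each library scaled to its own total. The median difference of the 10 genes in log2(value + 1) was -0.53 from buffer and -0.43 from the control, while all genes had medians of 0.00 and -0.06.

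By the size rule 1 member, Clec12a, was lower than in buffer (0.669% of all genes, 0.381% of the abundant ones). Against the control 2 members, Clec12a and Clec4a1, were lower (0.884% and 0.598%). Clec12a was thus lower by that rule both times, like 0.557% of all genes. No member was higher by that rule in either comparison, where 0.9% and 0.948% of all genes were, nor in both together, where 0.621% were. Both comparisons use the same rATB library, so their directions are not independent. In bulk RNA, fewer cells of a type and less RNA per cell cannot be told apart.

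**Figure D1:**
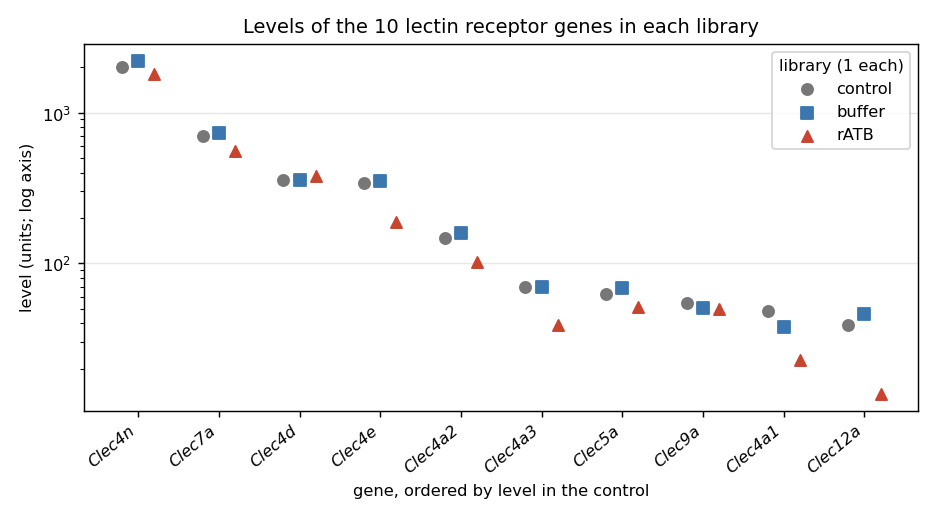
Level of each of the 10 receptor genes (units, log axis) in the control (circle), buffer (square) and rATB (triangle) libraries, 1 library per group and so no error bars. The triangle lies lowest for every gene except Clec4d, and the widest gap is that of Clec12a.

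Clec12a (ENSMUSG00000053063), an inhibitory receptor known to recognise uric acid crystals and to restrain myeloid activation, was the member farthest from both other libraries. It stood at 39.2 units in the control, 46.0 with buffer and 13.6 with rATB, from 697, 785 and 214 reads. Relative to rATB it was 3.38-fold higher in the buffer library (interval 2.90 to 3.95) and 2.88-fold higher in the control (interval 2.47 to 3.38). Ordered from the lowest, its difference from buffer was place 10 among the 12559 genes and its difference from the control place 37. Its pattern was closest to that of Clec4a4, another lectin gene with an inhibitory motif, Cx3cr1, a chemokine receptor of monocytes, and Chn2, a Rac-directed GTPase-activating protein. These were the nearest of 9320 named genes averaging 5 units or more, by distance in the pair of log2(value + 1) differences over the 3 libraries, at distances of 0.14, 0.18 and 0.23. In all, 18 genes lay within 0.5 of Clec12a.

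The Dcir group was also lower with rATB throughout. Clec4a2 (Dcir1, ENSMUSG00000030148), which carries the inhibitory motif, stood at 147 units in the control, 158 with buffer and 101.3 with rATB, which put buffer 1.56-fold above rATB (interval 1.47 to 1.66). Clec4a3 (Dcir3, ENSMUSG00000043832) stood at 69.4, 70.1 and 39.2 units in the same order, with buffer 1.79-fold above rATB (interval 1.62 to 1.98). In these libraries control and buffer were nearly level for Clec4a3, and rATB stood apart from both. Clec4a1 (Dcir4, ENSMUSG00000049037) had a different order, at 48.2 units in the control, 37.5 with buffer and 22.8 with rATB. The control exceeded rATB by 2.12-fold (interval 1.87 to 2.40), which passed the size rule except with median-of-ratios scaling, and buffer exceeded it by 1.65-fold (interval 1.45 to 1.88), which did not. Clec4a1 was the member that separated buffer from the control most, with a ratio of buffer to control of 0.779 (interval 0.702 to 0.863).

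Clec4e and Clec4d, whose products bind mycobacterial glycolipids and can form a complex on the cell surface, went separate ways. Clec4e (ENSMUSG00000030142), which pairs with Fcer1g, stood at 340.0 units in the control, 352 with buffer and 187 with rATB. Buffer was 1.88-fold (interval 1.80 to 1.96) and the control 1.81-fold (interval 1.74 to 1.90) above rATB, just short of the size rule at log2(value + 1) differences of -0.91 and -0.86. Clec4d (ENSMUSG00000030144) stood at 356 units in the control, 359 with buffer and 380.4 with rATB, and the 3 values were close. With rATB it was 1.06-fold the buffer value (interval 1.02 to 1.10) and 1.07-fold the control value (interval 1.03 to 1.11). With each library scaled to its own total that ratio was 1.03 (interval 0.997 to 1.07), so the excess over buffer was within counting error there. Set against each other within a library, which needs no scaling, Clec4d per kilobase was 1.99 times Clec4e in the control, 1.94 times with buffer and 3.86 times with rATB. That ratio was 1.99 times as high in the rATB library as in the buffer library (exact interval 1.88 to 2.10). For Clec4d, 1088 named genes lay within a distance of 0.1 of its pattern, and the nearest were Ube2a, Tapt1 and Rab5b, so its small excess was a common one.

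The most abundant receptors differed little. Clec4n (ENSMUSG00000023349), the Fcer1g-coupled receptor for fungal mannans, stood at 1995 units in the control, 2210.0 with buffer and 1814 with rATB, from 28537 to 37744 reads. Buffer lay 1.22-fold (interval 1.20 to 1.24) and the control 1.10-fold (interval 1.08 to 1.12) above rATB. Clec7a (ENSMUSG00000079293), the receptor for beta-glucan, stood at 696, 727 and 558 units, and buffer lay 1.30-fold above rATB (interval 1.27 to 1.34). Those narrow intervals come from many reads, and differences further below buffer than those of Clec4n (-0.28) and Clec7a (-0.38) were found in 13.6% and 8.57% of all genes. Clec5a (ENSMUSG00000029915), which signals through Tyrobp and Hcst and binds flaviviruses, stood at 62.4, 69.0 and 51.0 units, again with buffer above rATB, by 1.35-fold (interval 1.24 to 1.48). Clec9a (ENSMUSG00000046080), which binds actin filaments of dead cells and marks cross-presenting dendritic cells, stood at 54.9, 50.4 and 49.4 units. It did not differ between rATB and buffer beyond counting error (1.02-fold, interval 0.924 to 1.12), and its 1.11-fold lower level than in the control (interval 1.01 to 1.22) held with the deposited scaling alone. Xcr1, another marker of cross-presenting dendritic cells, was near the filter at 0.788, 1.11 and 0.953 units.

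**Figure D2:**
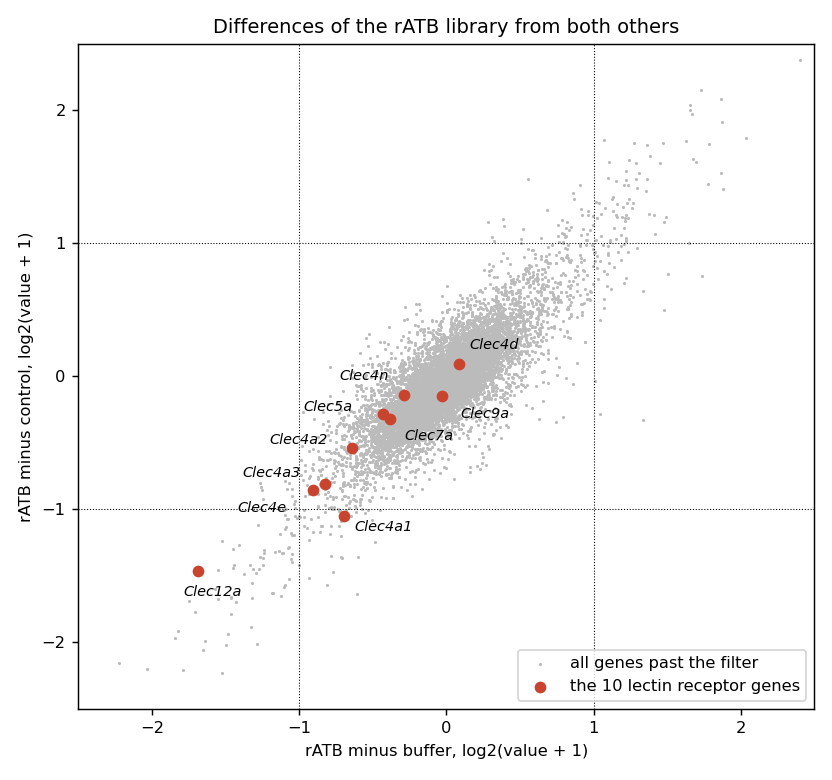
Difference of the rATB library from buffer (horizontal) and from the control (vertical) in log2(value + 1) for every gene past the filter (grey) and for the 10 receptor genes (red), with dotted lines at the size rule of 1. The red points lie along the lower left, Clec12a farthest out, and Clec4d and Clec9a near the middle. Of the grey genes, 7 lie outside the axes.

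Per kilobase of the longest coding transcript, Clec4n led in every library, at 1623 units per kilobase in the control, 1798 with buffer and 1476 with rATB. Averaged over the libraries it was place 20 from the highest among 11229 genes with a length. It made up 64.3%, 66.0% and 67.0% of the summed per-kilobase level of the 10 genes. In the control Clec7a followed at 306 units per kilobase, then Clec4d at 269, Clec4e at 135, Clec4a2 at 59.4, Clec4a3 at 53.4 and Clec4a1 at 30.9. The last 3 were Clec9a, Clec5a and Clec12a at 16.7, 16.6 and 15.7, and neither of the 2 steps between these neighbours exceeded counting error. With rATB Clec4d at 288 units per kilobase stood above Clec7a at 245, and Clec12a at 5.44 was alone at the bottom. There the neighbours Clec9a, Clec4a1 and Clec5a, at 15.0, 14.6 and 13.6, did not differ beyond counting error. With the union of all exons as the length, an alternative chosen after the data were seen, Clec4a2 and Clec4a3 changed places in the control and the other 8 kept theirs.

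The buffer library by itself lay close to the control for most of the receptors. No member passed the size rule, as did 0 higher genes (0%) and 7 lower genes (0.0557%) over the whole table, or 1 and 6 with each library scaled to its own total. With a pseudocount of 0.1 unit these were 20 higher and 37 lower genes. By counting error 5 members were higher with buffer, against 5.61% of all genes and 6.82% of the abundant ones, and Clec4a1 was lower, against 21.9% and 37.3%. The largest excess was that of Clec12a, at a ratio of buffer to control of 1.17 (interval 1.06 to 1.30). Clec4n and Clec5a both stood at a ratio of 1.11, with intervals of 1.09 to 1.12 and 1.02 to 1.20. With each of the other 3 scalings 7 members were higher and 1 lower than in the control. The median difference of the 10 genes was 0.06, beside -0.05 for all genes.

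Apart from Clec5a, the receptor genes lie in 2 clusters on chromosome 6, and their neighbours there, chosen by position alone, were read in the same way. In the Clec4 cluster of 9 genes, which holds 6 of the 10 receptor genes, the rATB library was lower than both others beyond counting error in 7 of the 8 genes that passed the filter (15.4% of all genes). Of these 7, 5 are receptor genes already described, and the others are Clec4a4 and Clec4b1. Clec4a4 (Dcir2) stood at 7.65 units in the control, 8.26 with buffer and 2.16 with rATB, from 136, 141 and 34 reads. Clec4b1, an activating receptor gene of the same group, stood at 24.2, 21.2 and 8.07 units. Both were lower by the size rule in both comparisons, and both lie between Clec4a3 and Clec4a2. At the other end of the cluster Clec4n, Clec4d and Clec4e are adjacent, and their differences from buffer were -0.28, 0.08 and -0.91. Necap1, the nearest gene outside that end of the cluster where Clec4a1 lies, stood at 58.7, 56.9 and 47.7 units. The next genes on that side did not follow, with C3ar1, a complement receptor gene, at 282, 214 and 241 units and Foxj2 at 73.97, 65.4 and 70.7. The other cluster runs from Clec12a over Clec9a and Clec7a to Olr1. Of its 6 genes past the filter, 3 were lower than in both other libraries beyond counting error (15.4% of all genes). They were Clec12a and Clec7a, receptor genes already described, and Clec1a. Clec1b, the gene of the platelet receptor Clec-2, lies between Clec12a and Clec9a and stood at 35.3, 34.6 and 38.3 units. Set against each other within a library, Clec9a per kilobase was 1.06 times Clec12a in the control, 0.833 times with buffer and 2.76 times with rATB. Outside the Clec12a end, the nearest gene, Clec2m, was not found by symbol. Cd69, the next and a lectin-like gene, was higher by the size rule in both comparisons (0.621% of all genes), at 13.4, 15.5 and 33.7 units. Clec2d, the gene after it, stood at 90.1, 95.3 and 81.5 units, lower with rATB than both others beyond counting error. Past the Olr1 end, Gabarapl1 stood at 144, 136 and 131 units.

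**Figure D3:**
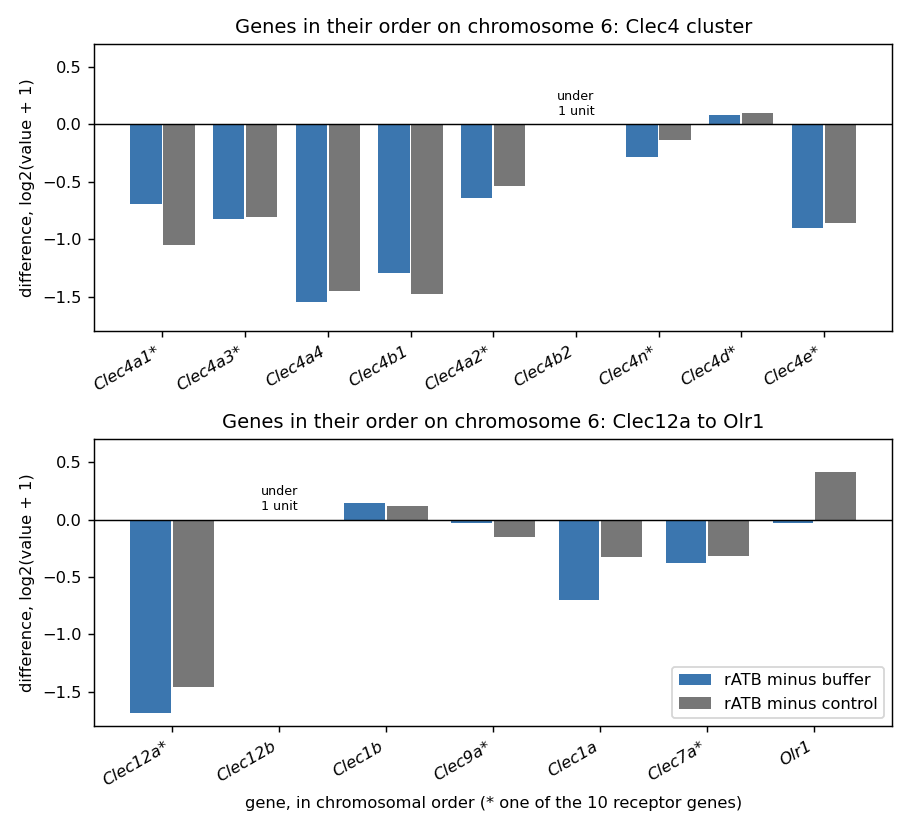
Difference of the rATB library from buffer (blue) and from the control (grey) in log2(value + 1), for the genes of both lectin clusters in their order on chromosome 6, with the 9 receptor genes that lie there starred. In the upper panel the bars run down from Clec4a1 to Clec4a2 and again at Clec4e, with Clec4d slightly above 0, and in the lower panel Clec12a stands far below its neighbours.

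Close copies can exchange reads, so the receptor transcripts were compared with all annotated mouse transcripts. Of windows of 100 bases, 2.69% were found unchanged in another gene for Clec4a2 (shared with Clec4a4) and for Clec9a (shared with Clec1b), and 0% for the other 8 genes. With windows of 50 bases the shares were 8.92% for Clec4a2, 4.19% for Clec9a and 0.932% for Clec4n. Clec9a also shares 184 exonic bases with Clec1b on the same strand. No receptor gene overlapped an exon of a gene on the other strand.

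Start-site regions are shown for the receptor gene lowest with rATB relative to buffer and for the adjacent pair that differed. They come from RefSeq on the mouse build GRCm38.p6 and span 250 bases before to 50 bases after the start. Clec12a lies at chr6:129349994-129350293 (plus strand), Clec4e at chr6:123289822-123290121 (minus strand) and Clec4d at chr6:123261857-123262156 (plus strand). Capitals mark the core motif of the myeloid factor PU.1, GAGGAA, read on either strand.
Clec12a: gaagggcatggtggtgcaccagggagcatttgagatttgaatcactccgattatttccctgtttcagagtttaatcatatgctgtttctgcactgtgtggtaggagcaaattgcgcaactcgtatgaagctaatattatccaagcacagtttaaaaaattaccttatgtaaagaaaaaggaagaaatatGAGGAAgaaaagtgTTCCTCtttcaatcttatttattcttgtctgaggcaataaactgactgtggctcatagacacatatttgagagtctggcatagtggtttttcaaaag
Clec4e: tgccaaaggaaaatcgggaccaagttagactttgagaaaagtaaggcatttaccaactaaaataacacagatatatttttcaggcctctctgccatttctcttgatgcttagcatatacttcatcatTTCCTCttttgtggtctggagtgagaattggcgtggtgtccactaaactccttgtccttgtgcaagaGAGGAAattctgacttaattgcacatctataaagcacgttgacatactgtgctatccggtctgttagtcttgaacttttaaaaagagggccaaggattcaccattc
Clec4d: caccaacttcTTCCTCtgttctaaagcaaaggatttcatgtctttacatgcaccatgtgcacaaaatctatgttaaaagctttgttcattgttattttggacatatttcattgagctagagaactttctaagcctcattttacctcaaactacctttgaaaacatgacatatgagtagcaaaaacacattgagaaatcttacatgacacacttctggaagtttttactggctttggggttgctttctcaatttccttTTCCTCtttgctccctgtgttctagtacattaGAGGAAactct
The core was present 2 times for Clec12a, 2 times for Clec4e and 3 times for Clec4d. At least 1 core was found in 28.3% and at least 2 in 4.82% of all 32851 start-site regions, and 3 or more in 0.685%. It was present in a region of 7 of the 9 receptor genes in the table, all but Clec4a2 and Clec9a. Receptor genes were counted where any of their regions held a motif, while the shares are per region. Clec4a3 and Clec7a have more than 1 region, and a Clec4a3 region held no core. The AP-1 motif TGANTCA was present for 2 of the 9 (7.81% of all regions), the C/EBP motif TTGCNNAA for 2 (10.8%) and the STAT motif TTCNNNGAA for 1 (8.3%). Both strands were searched, and no cores overlapped. A match is a string of letters and shows no binding.

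Genes of the signalling chain below these receptors differed less than the receptors. Of 22 adaptors and kinases, all measured, none passed the size rule, and the median difference was -0.06 from buffer and -0.26 from the control. With rATB 10 were lower (15.4% of all genes) and 2 higher (11.4%) than in both other libraries beyond counting error. For this list, the clusters above and the lists below, the shares of the abundant genes by that measure were 22.3% lower and 16.2% higher. The shared adaptor gene Fcer1g stood at 276 units in the control, 246 with buffer and 285 with rATB, and Tyrobp at 759, 662 and 670.3. Syk stood at 675, 622 and 689 units, and Card9 at 121, 109.9 and 94.4. Prkcd, the protein kinase that links Syk to Card9, was the member farthest from both libraries, at 1278, 1219 and 850.2 units, buffer being 1.43-fold above rATB (interval 1.40 to 1.47). Next were the Src family kinase gene Fgr (179, 158 and 121 units) and the adaptor gene Lcp2 (105, 103 and 79.2 units).

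Genes listed as brakes of lectin signalling, among them phosphatases, ubiquitin ligases and tetraspanins, gave no single direction. They were listed by class, and whether each restrains these receptors was not tested. Of 14 measured, 0 passed the size rule, and the medians were 0.04 and -0.05. Beyond counting error, 5 were lower (15.4% of all genes) and 4 higher (11.4%) than in both other libraries. Dok2, a docking adaptor, stood at 142, 129.5 and 85.3 units. Cd63, a tetraspanin of lysosomes, stood at 85.0, 88.1 and 116.7 units, Rubcn (listed under an older name) at 61.9, 61.9 and 81.5, and Ubash3b, a phosphatase that acts on Syk, at 61.9, 64.3 and 84.2.

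Genes known to be induced when Dectin-1, Dectin-2 or Mincle is engaged were lower on the whole. Of 17 listed, 13 passed the filter, with medians of -0.49 from buffer and -0.73 from the control. The rATB library was lower than both others beyond counting error for 8 (15.4% of all genes) and higher for 1 (11.4%). By the size rule 4 were lower than in buffer (0.669% of all genes) and 3 lower than in the control (0.884%), with 0 and 1 higher (0.9% and 0.948%). The higher gene was Il12b, which encodes the shared subunit of interleukins 12 and 23, at 8.66 units in the control, 17.4 with buffer and 26.1 with rATB. The cytokine gene Tnf stood at 29.8, 26.3 and 10.3 units, Nr4a1 at 7.14, 6.50 and 2.61, Egr2 at 398, 419.9 and 204, and Egr3 at 13.95, 11.1 and 5.66. Many receptors other than these lectins induce the same genes.

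Transcription factor genes tied to myeloid lectins were mixed, with medians of 0.12 and 0.00 over 11 genes, all measured. By the size rule 0 differed from buffer, and 1, Klf4, was lower than in the control (0.884% of all genes) at a difference of -1.03. Spi1, which encodes PU.1 and is listed under the older symbol Sfpi1, stood at 348, 315 and 266 units, buffer being 1.18-fold above rATB (interval 1.14 to 1.23). Klf4 stood at 21.3, 16.6 and 9.91 units and Mitf at 72.6, 73.4 and 47.7. Irf8, needed for cross-presenting dendritic cells, stood at 384, 378 and 566 units, and Cebpb at 83.2, 75.004 and 101.2.

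Other C-type lectin-like genes spread further in both directions than the 10 receptors. Of 30 listed, 22 passed the filter, with medians of 0.00 and 0.04. By the size rule 6 were lower than in buffer (0.669% of all genes) and 6 lower than in the control (0.884%). In each comparison 2 were higher (0.9% and 0.948% of all genes). Asgr2 stood at 140.6, 101.8 and 20.9 units, Cd209a at 36.2, 25.0 and 8.20, and Mgl2 at 381, 278 and 98.5. Cd72 was among the higher ones, at 1.74, 1.70 and 13.3 units.

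**Figure D4:**
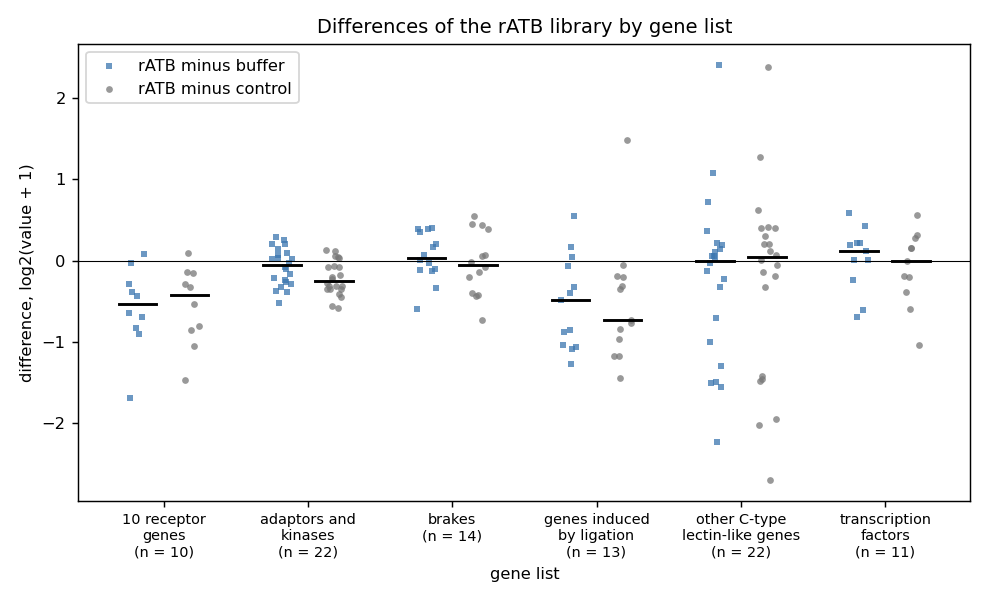
Differences of the rATB library from buffer (squares) and control (circles) in log2(value + 1) for each gene past the filter, by list, with the median of each list as a bar. The 10 receptor genes and the genes induced by ligation have medians below -0.4 in both comparisons, and the other lists have medians between -0.26 and 0.12.

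Cell type markers moved in these libraries as well, and their part in the receptor differences was not tested. Summed over 9 macrophage markers, levels were 5301 units in the control, 4090.1 with buffer and 3785 with rATB. The rATB value was lowest in 5 of the 9 (44.1% of all genes) and highest in 1 (33.2%). Beyond counting error it was likewise lower than both in 5 (15.4%) and higher in 1 (11.4%). Already with buffer, 8 of the 9 were lower than in the control beyond counting error (21.9% of all genes). The 8 monocyte markers summed to 7777, 7354 and 7554 units, of which Fn1 gave most. Of the 5 past the filter, only Ccr2 (590, 544 and 229 units) was lower than in buffer beyond counting error (20% of all genes). Another 3 were higher than in buffer (19.6%), and the median difference from buffer was 0.10. Against the control 2 were lower (27.3%) and 1 higher (14.5%), with a median difference of -0.004. The 7 general dendritic cell markers summed to 16091, 13304 and 10288 units, most of it Cd74, but went both ways. With rATB 4 were lower (15.4% of all genes) and 2 higher (11.4%) than in both other libraries beyond counting error. The higher ones were Ccr7 (621, 723 and 1252 units) and Flt3 (5.29, 7.20 and 12.8 units). The 9 markers of cross-presenting (type 1) dendritic cells summed to 610, 579 and 738 units, most of it Irf8. Of the 7 past the filter, 2 were lower than in both other libraries beyond counting error (Cadm1 and Wdfy4), against 15.4% of all genes. By the same measure 3 were higher (Batf3, Irf8 and Gcet2), against 11.4%. The median difference was 0.21 from buffer and 0.03 from the control. The 10 neutrophil markers summed to 2046, 1795 and 2319 units, nearly all Mmp8, and the defining marker Ly6g rested on 2 to 6 reads. Of the 5 past the filter, 3 were lower with rATB than in the control (27.3% of all genes) and 2 higher (14.5%) beyond counting error. Relative to buffer 1 was lower (20%) and 1 higher (19.6%). The median difference was -0.72 from the control and 0.11 from buffer. Already with buffer, 4 of the 5 were lower than in the control (21.9%). The 9 markers of type 2 dendritic cells summed to 4918, 4273 and 4063 units. Of these, 3 were lower (Cd209a, Mgl2 and Sirpa) and 3 higher (Irf4, Flt3 and Kit) than in both others beyond counting error. The shares of all genes were again 15.4% lower and 11.4% higher. The 6 markers of plasmacytoid dendritic cells summed to 183, 195 and 230.1. Of the 4 past the filter, 1 was lower (15.4% of all genes) and 1 higher (11.4%) than in both others beyond counting error. Eosinophil, basophil and mast cell markers summed to 73.5, 67.7 and 59.9 units, and T and NK cell markers to 4.28, 4.74 and 2.80.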

How the data were processed

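Libraries from total RNA came from a TruSeq kit (version 2, a type that does not mark strand) and were sequenced as paired reads of 150 bases, per the labels' protocols. TopHat2 2.0.13 is named as a tool, per the submitters' processing notes. The notes name GRCh37, a human build, for mouse identifiers, so the build is unclear and no coordinates of the deposited table are used. How reads were counted and scaled, and on which annotation, is not given.

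The authors deposited log2 values, 1 column per library, for 37991 genes. A spreadsheet error stands for log2 of 0 in 53.1% to 54.0% of cells. On the linear scale 100% of values were whole multiples of the smallest (tolerance 1e-06), so counts were recovered as multiples, and the deposited scaling (1, 1.04 and 1.13 for control, buffer and rATB) was kept. A value of 0 reads allows up to 0.169, 0.176 and 0.191 units. Symbols turned into dates, 25 in number, were restored from identifiers, and rows sharing a symbol were summed.

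Genes averaging 1 unit or more were kept. Differences use log2(value + 1), which understates low genes. Ratio intervals are exact conditional (Clopper-Pearson) intervals. The calling rule and intervals were tested on simulated counts. Transcript lengths and windows come from GENCODE M21, gene order and start-site regions from RefSeq tables. Start-site regions were matched by symbol for 9 of the 10 receptor genes.

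The 10 genes, 5 gene lists and 12 marker lists (177 of 178 symbols found) were chosen with earlier results of these data known, and nothing here is an independent test. Named genes were the 10 receptors, 4 adaptors or kinases that pair with them, and up to 4 genes per list averaging 5 units or more that lay farthest from both other libraries. A gene that this rule named is not reported here. Genes named by chromosomal position, marker genes, Il12b and Spi1 were named outside that rule. Alternatives were a pseudocount of 0.1, a filter at 5 units, no filter, and 3 other scalings. Python 3.11.15, numpy 2.4.6, pandas 2.3.3 and scipy 1.17.1 were used.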

Additional observations from a re-analysis of the deposited data

How the results depend on the processing

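No paired analysis was possible because each group had 1 library, and for the same reason no replicate could be left out. With a pseudocount of 0.1 unit the genes past the size rule went from 197 to 358 for rATB against buffer, from 230 to 391 for rATB against control and from 7 to 57 for buffer against control (20 higher and 37 lower), while the receptor genes past it stayed at 1, 2 and 0. With median-of-ratios scaling 1 receptor gene in place of 2 was past the rule against the control, since Clec4a1 then stood at -0.997, just inside it. Each library scaled to its own total gave 1 higher and 6 lower genes for buffer against control, in place of 0 and 7. The other totals of genes past the rule stayed within 1.5 times. By direction, the filter at 5 units took the higher genes from 113 to 75 against buffer and from 119 to 78 against control, and no filter took those of buffer against control from 0 to 1. The sign of all 30 receptor differences was kept under the 3 other scalings. The pseudocount and the 2 filter settings cannot change a sign. Scalings moved the median of all genes by less than 0.1, which is not small beside several receptor differences between buffer and control. They moved from 4 to 8 of the 30 receptor differences outside the counting interval of the deposited scaling. The ratio of buffer to control for Clec4n went from 1.11 to between 1.15 and 1.17. The number of receptor genes lower with rATB than in both other libraries beyond counting error was 8 under each of the 4 scalings, and Clec4d was higher than both under 3. The 2 alternatives without the filter or with a higher one changed no receptor value. With 1 library per group, the spread between cultures is unknown, and only counting error was measured.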
